A study of Mus musculus with 9 samples.

Results

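CTCF occupancy was examined in 8 very long autosomal genes of the nervous system: Cntnap2, Nrxn3, Lsamp, Ptprd, Dlg2, Magi2, Csmd1 and Macrod2. A peak was taken as a member where it overlapped the gene record, from its first to its last base, in GENCODE M21 on GRCm38. This gave 691 of the 225769 merged CTCF peaks of the series, spread over 15.4 Mb. The study used ChIP-seq for CTCF in primary female neural stem cells (NSCs), grown from cortices of C57Bl/6 embryos at E14.5, to compare mutants of Smchd1. SMCHD1 is a chromatin protein of the SMC family that takes part in silencing of the inactive X chromosome and of some autosomal gene clusters. MommeD43-GFP cells (3 libraries) were homozygous for the MommeD43 point mutation, placed by CRISPR on the GFP-tagged Smchd1 allele. Smchd1 del/del cells, the null (2 libraries), were made in culture from Smchd1 flox/flox lines with a retrovirus that carries Cre and puromycin resistance, and carried no GFP tag. Smchd1 GFP/GFP cells, the control (3 libraries), were homozygous for the tagged allele without the mutation. The null therefore differed from the control in the virus, the drug selection and the tag as well as in Smchd1, and these cannot be told apart. An input library came from a control line and has no value in the table analysed here. A CTCF ChIP does not show whether the cells were NSCs, so the labelled cell type was not checked.

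The authors deposited 1 column per genotype, the mean over its libraries of log2 RPM (reads per M mapped reads) in each merged peak. Values for single libraries were not used here, so no difference has a replicate error and none was tested. The steps between the lowest values showed how many reads a value stood for. From these the geometric mean depth was 49.2 M reads per library in MommeD43-GFP, 49.98 M for the null and 41.7 M in Smchd1 GFP/GFP. A median peak stood for 34.9 reads per library in MommeD43-GFP, 34.5 in the null and 30.0 in control. Errors given as counting SE below come from these reads alone and leave out the spread between cell lines. Both mutants were set against the same control column, so a low or high control value moves both differences.

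CTCF is a zinc finger protein that binds a long, directional DNA motif and halts the cohesin complex as it extrudes chromatin loops. Where it binds, it helps to set loop anchors and the borders of topological domains. Genes of more than a megabase encode many adhesion molecules and synaptic scaffolds of neurons. They consist almost wholly of introns, are poor in coding sequence and CpG islands, and several of them lie in late-replicating chromatin or at common fragile sites. A match to the core CTCF consensus, on either strand, was looked for in every peak. It was found in 16 of the 691 members, which is 2.32% (exact Clopper-Pearson 95% interval 1.33 to 3.73%), against 3.79% of all peaks. Among peaks whose mean of the 3 columns reached the median of all peaks, 13 of 161 members (8.07%) held it, against 7.28% of all such peaks. The motif with its flanks is shown for the motif peak of highest level in each of the 5 genes that had one, and for the motif peaks in which the null was at least 2-fold above control at or above the median level of all peaks. The Cntnap2 site in intron 1 was added after its values were seen, for the difference it showed. Bases are from RefSeq's copy of GRCm38 (GRCm38.p6), written 5′ to 3′ on the strand of the motif, with the core consensus match in capitals.
Cntnap2, chr6:46961461-46961500, minus strand: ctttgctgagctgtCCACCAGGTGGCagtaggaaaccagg
Cntnap2, chr6:45323683-45323722, plus strand: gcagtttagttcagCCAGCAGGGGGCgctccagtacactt
Nrxn3, chr12:89106599-89106638, minus strand: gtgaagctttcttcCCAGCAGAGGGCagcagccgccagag
Nrxn3, chr12:89505296-89505335, plus strand: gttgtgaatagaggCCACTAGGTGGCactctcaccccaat
Lsamp, chr16:42165109-42165148, minus strand: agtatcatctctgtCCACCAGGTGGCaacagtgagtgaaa
Lsamp, chr16:40739173-40739212, plus strand: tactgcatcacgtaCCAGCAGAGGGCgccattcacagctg
Csmd1, chr8:16835501-16835540, plus strand: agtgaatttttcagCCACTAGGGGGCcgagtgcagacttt
Macrod2, chr2:142254111-142254150, minus strand: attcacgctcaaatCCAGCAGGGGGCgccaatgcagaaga

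The 8 genes held fewer peaks per length than most of the genome. Their density was 44.8 peaks per Mb. The other 46 autosomal protein-coding genes of 1 Mb or more held 76.2 per Mb (4659 peaks), all autosomal protein-coding genes together 111 per Mb, and all autosomes 88.2 per Mb. Of the long genes, 1 without a row was left out of this density and of the ranks below. The figure for all protein-coding genes keeps the length of genes without a row. The range within the 8 genes was wide. Csmd1 had 84.6 peaks per Mb, Magi2 59.5, Nrxn3 57.7, Dlg2 41.1, Macrod2 37.0, Lsamp 34.6, Cntnap2 31.2 and Ptprd 30.8. Ranked from the lowest of the 54 long genes, Ptprd stood 6th, Cntnap2 7th, Lsamp 15th, Macrod2 18th and Dlg2 22nd. Nrxn3 stood 33rd, Magi2 34th and Csmd1 38th, so sparse peaks were not shared by all 8. No test was made of these densities, as the peaks called in each genotype were merged into 1 set.

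**Figure D1:**
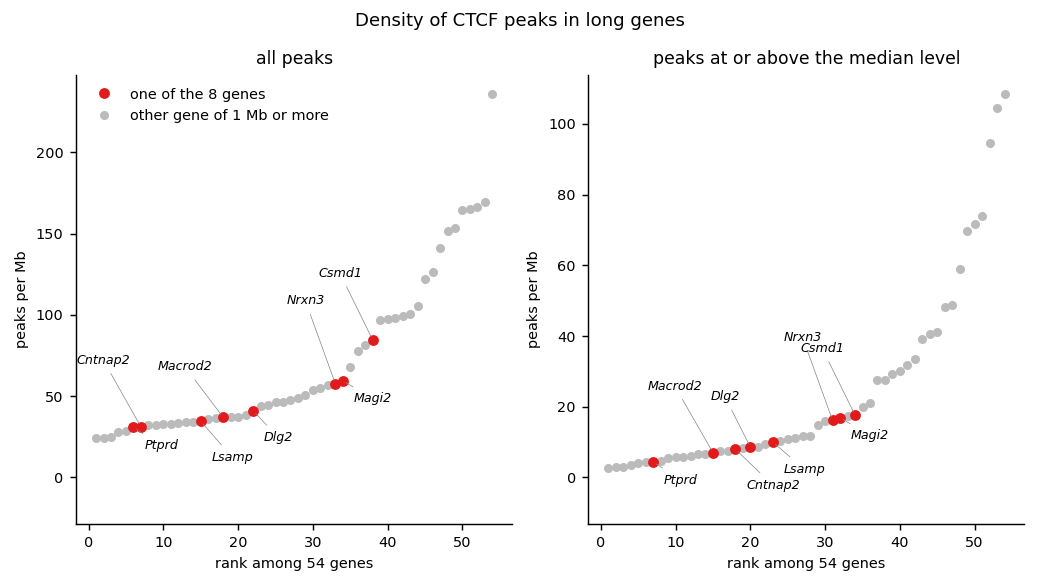
Number of CTCF peaks per Mb of gene (vertical axis) for 54 autosomal protein-coding genes of 1 Mb or more, in rank order (horizontal axis). The left panel counts all peaks and the right panel those whose mean of the 3 columns reached the median of all peaks. Red points are the 8 genes, which run between 30.8 (Ptprd) and 84.6 (Csmd1) peaks per Mb on the left and between 4.40 (Ptprd) and 17.7 (Csmd1) on the right, and grey points are the other 46.

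Peaks within the 8 genes were also short and of low level. Their median length was 600 bp, against 750 bp for all peaks. The median level as deposited, in log2 RPM over the whole peak, was -1.02 in MommeD43-GFP, -0.97 for the null and -1.02 for control. The medians of all peaks were -0.50, -0.53 and -0.47 in the same columns. Divided by peak length, this gap closed: the median per kb of peak was 0.01, 0.03 and -0.01 log2 RPM per kb for the members and 0.02, 0.00 and 0.04 for all peaks. Of the 691 members, 161 (23.3%) had a mean of the 3 columns at or above the median of all peaks, which is the line called the median level below. That is 10.4 such peaks per Mb, against 30.5 in the other 46 long genes and 44.6 over all autosomes. Most members lay in introns (632, 91.5%), 38 touched a coding exon, 17 lay within 1 kb of an annotated transcript start, and the other 4 lay in untranslated or non-coding exons. Base composition was near that of all peaks (median GC content 47.0% against 47.8%).

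**Figure D2:**
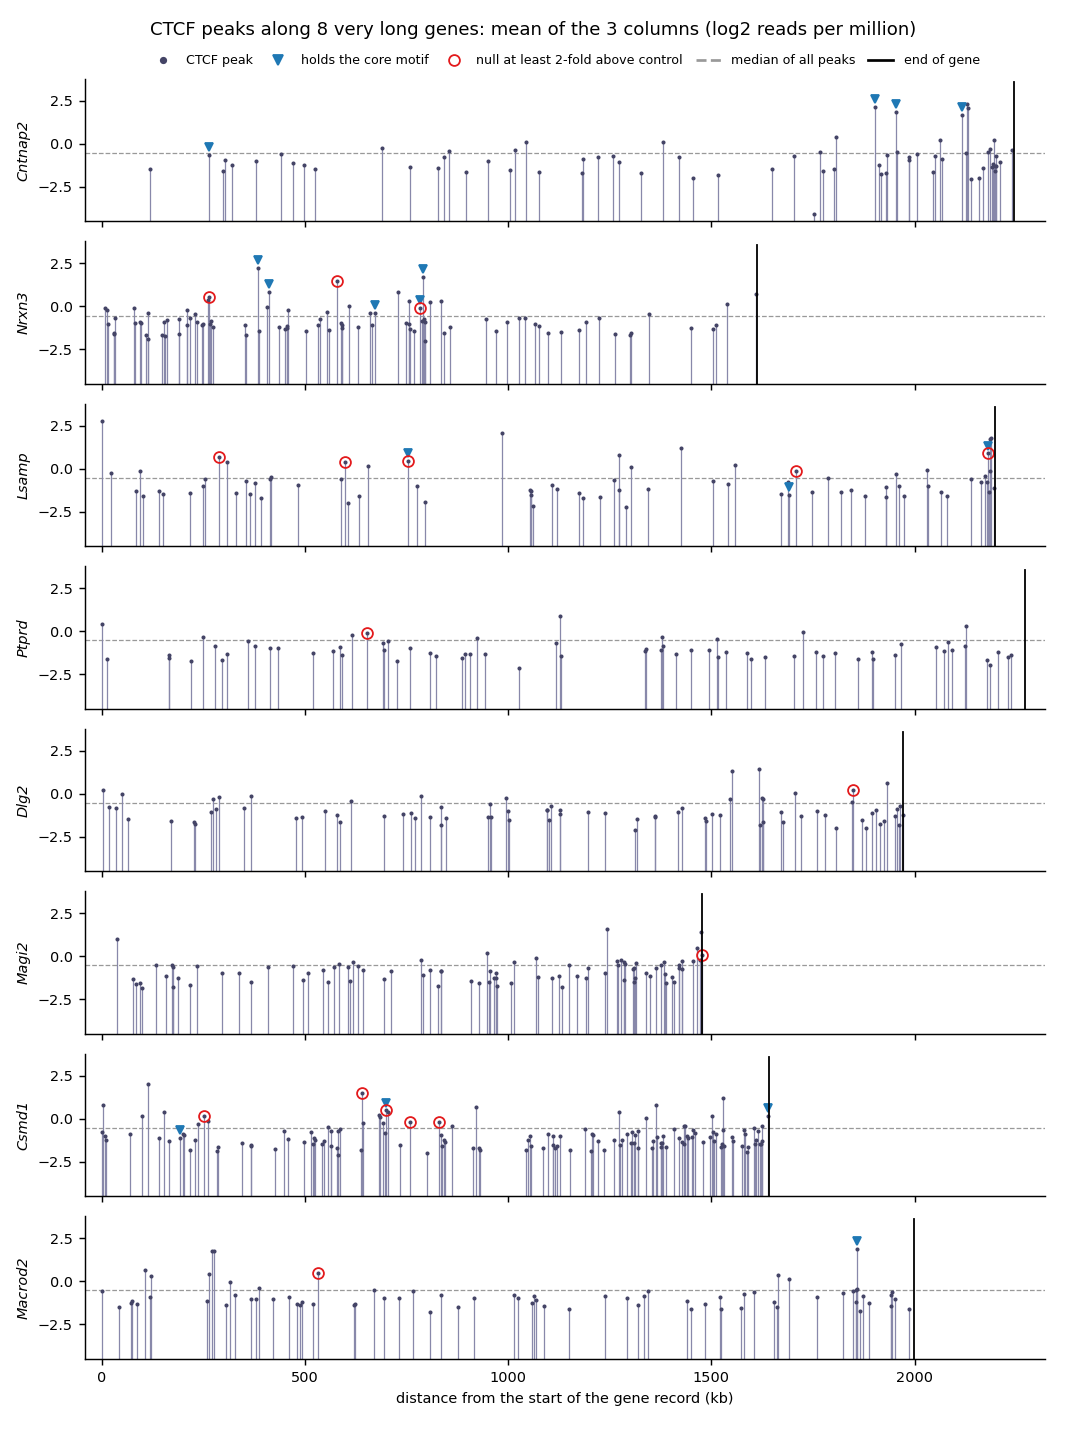
Each stem is 1 of the 691 CTCF peaks, placed by its distance from the start of the gene record in kb (horizontal axis) and as high as the mean of its 3 columns in log2 RPM (vertical axis). Blue triangles mark the 16 peaks with the core motif, red circles the 17 peaks that reached the median level of all peaks (dashed line) and in which Smchd1 del/del was at least 2-fold above control, and black bars the gene ends.

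Among the adhesion molecules, Cntnap2 encodes CASPR2, a neurexin-like protein that clusters potassium channels next to the node of Ranvier. The gene spans chr6:45059357-47304213 on the plus strand and held 70 peaks, 18 of them at or above the median level. They crowded towards the 3′ end: with the gene cut into 3 equal parts, 40 of the 70 lay in the last and 11 in the first. Within that first part no peak was called over 163 kb, from 525 kb to 689 kb after the gene start. Its highest peak, at chr6:47187001-47189250 in intron 20, stood at 2.32 log2 RPM in MommeD43-GFP and 2.60 in the null, against 2.10 in Smchd1 GFP/GFP. The next, at chr6:46960951-46962150 in intron 15, which holds the first sequence above, stood at 1.95 and 2.45 in these mutants and at 2.10 in control. At both sites the null was highest, and MommeD43-GFP lay above control at the first and below it at the second. No Cntnap2 peak at or above the median level was 2-fold apart in any comparison. The nearest to it was the intron 15 peak at chr6:46866151-46867200, where Smchd1 del/del exceeded control by 0.89 (counting SE 0.17), and the motif peak at chr6:47175301-47177400 in intron 20, where it did so by 0.88 (counting SE 0.11) and MommeD43-GFP by 0.55 (counting SE 0.11). At the other end of the range, a peak over the last coding exon at chr6:47298151-47298900 differed from control by -0.20 in MommeD43-GFP (counting SE 0.19) and by -0.51 in the null (counting SE 0.23). Peaks near annotated starts inside the gene were modest, and only the last of them reached the median level. Those at chr6:47044651-47045100, chr6:47045701-47046150 and chr6:47244151-47244900 lay between -1.17 and -0.49 in MommeD43-GFP and between -0.88 and -0.27 in the null, against -0.75 to -0.07 in control.

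In the weaker range, 3 Cntnap2 peaks stood far apart between the genotypes, and these were picked out after their values were seen. The first, at chr6:45323251-45324150 in intron 1, holds the core motif on the strand of the gene, shown as the second sequence above. Its level was -0.74 in MommeD43-GFP and 0.95 in the null, against -2.13 in control, so that the null exceeded control by 3.07 (counting SE 0.29) and MommeD43-GFP by 1.39 (counting SE 0.31). These values stood for 29.4, 96.4 and 9.55 reads per library. The second, at chr6:46811401-46811850, is a peak of which 60.0% is masked as repeat. It held 25.5 reads per library in the null. None of the control libraries had a read there, and MommeD43-GFP, at -5.72 log2 RPM, had close to none. Against the limit that 3 reads over the control libraries allow, 0.0240 RPM, the null was at least 21.2-fold higher. The third, at chr6:47197201-47197650 in intron 21, held 14.2 reads per library in MommeD43-GFP and 28.5 in the null, against 3.41 in control, differences of 1.82 (counting SE 0.50) and 2.80 (counting SE 0.49).

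Nrxn3 encodes neurexin 3, a presynaptic receptor that pairs with neuroligins and other partners across the synaptic cleft. It spans chr12:88722876-90334935 on the plus strand, and 93 peaks were called in it. Here the pattern along the gene was the opposite of Cntnap2, with 44 peaks in the first of 3 equal parts and 15 in the last. With 5 motif peaks it had more of them than any other of the 8 genes. The highest peak, at chr12:89105851-89107500 in intron 3, holds a motif (the third sequence) and stood at 1.96 in MommeD43-GFP and 2.46 in the null, against 2.32 in control. The peak next in level, at chr12:89512651-89514900, also holds a motif and touches a coding exon, with 1.63 in MommeD43-GFP and 1.97 in the null, against 1.55 in control. In both, the null lay a little above control (0.14 and 0.42), while MommeD43-GFP lay below it in the first (-0.35) and near it in the second (0.08).
In 3 other Nrxn3 peaks of at least the median level the null was at least 2-fold above control. The peak at chr12:89301601-89303100 in intron 7 stood at 1.51 in MommeD43-GFP and 2.04 in the null, against 0.83 in control, a difference of 0.68 and 1.21 (counting SE 0.12 each). The peak at chr12:88986901-88987800 in intron 3 stood at 0.64 and 1.07 in the mutants, against -0.04 in control. The third, at chr12:89504851-89505600 in intron 10, holds the fourth sequence above and stood at 0.04 and 0.59, against -0.91 in control, differences of 0.95 and 1.49 (counting SE 0.21 each). In all 3, the order was the same, with the null highest and control lowest. The lowest difference of MommeD43-GFP in the gene at this level was -0.48 (counting SE 0.19), at chr12:89180701-89181600. Near an annotated start in intron 3, the peak at chr12:88953151-88954200 stood at -0.21 and -0.38 in the mutants, against -0.67 in control. A weaker peak, at chr12:89312401-89313150 in intron 7, was picked out after its values were seen. It held 33.9 reads per library in MommeD43-GFP and 64.9 in the null, against 6.60 in control, differences of 2.12 and 3.04 (counting SE 0.35 each).

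Lsamp encodes the limbic system-associated membrane protein, an immunoglobulin cell adhesion molecule of the IgLON family that guides neurite growth. It spans chr16:39984361-42181679 on the plus strand, with 76 peaks and a stretch of 188 kb without any. The peak over its annotated start, at chr16:39983551-39985350, had the highest level of all 691 members as deposited, and the second highest per kb. It stood at 2.71 in MommeD43-GFP and 2.89 in the null, against 2.83 in control, so the genotypes were nearly level there (differences -0.12 and 0.06, counting SE 0.07 each). No match to the core or the relaxed consensus was found in it.
Inside the gene, larger differences were found. Of the 22 peaks that reached the median level, 5 were at least 2-fold higher in the null than in control, and over these 22 the median difference of the null was 0.59. With the level set by the control column, a choice made after the data were seen, it was 0.45 over 22 peaks, 4 of them at least 2-fold higher. The peak with the widest gap in the null, at chr16:40738801-40739700 in intron 1, holds a motif (the sixth sequence) and stood at 0.46 in MommeD43-GFP and 1.28 in the null, against -0.28 in control, differences of 0.74 and 1.56 (counting SE 0.17 each). The motif peak at chr16:42163651-42166050 in intron 8 (the fifth sequence) stood at 1.08 and 1.33 in the mutants, against 0.31 in control. Without a core motif, the peak at chr16:41692351-41693100 in intron 3 stood at 0.48 and 0.27, against -1.10 in control, and was the member at or above the median level in which MommeD43-GFP was furthest above control, by 1.57 (counting SE 0.21). Those at chr16:40271701-40272600 and chr16:40581901-40582800, both in intron 1, were above control by 0.74 and 0.93 in MommeD43-GFP and by 1.08 and 1.29 in the null. So all 5 were higher than control in both mutants, and the null was above MommeD43-GFP in 4 of them.

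Ptprd encodes a receptor tyrosine phosphatase that organises synapses from the presynaptic side. On the minus strand of chr4:75941238-78211961 it is the longest of the 8 genes, yet it held 70 peaks and none with the core motif. Only 10 of these were at or above the median level, and 205 kb in its middle had no peak. Repeats masked 41.4% of a Ptprd peak at the median, against 14.7% over all members. The highest peak, at chr4:77082901-77083950, stood at 0.96 in MommeD43-GFP and 1.07 in the null, against 0.70 in control. At the gene start, the peak at chr4:78211351-78212700, which also overlaps the neighbouring B230208B08Rik, stood at 0.27 and 0.37 in the mutants, against 0.68 in control. A peak near an inner start, at chr4:76086001-76086900, stood at 0.16 and 0.42, against 0.29. The 1 peak at or above the median level that was past 2-fold was the intronic peak at chr4:77558551-77559450. It stood at -0.02 in MommeD43-GFP and 0.86 in the null, against -1.05 in control, differences of 1.03 (counting SE 0.22) and 1.91 (counting SE 0.21). The difference in the null was the widest of any member at or above the median level. Over all levels, 4 of the 70 Ptprd peaks were at least 2-fold higher and 2 lower in MommeD43-GFP, where 2.08% and 0.718% of all peaks were. In the null 4 were higher and 1 lower, where 3.31% and 1.85% of all peaks were.

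Dlg2 and Magi2 encode scaffolds of the postsynaptic density. Dlg2 makes PSD-93, a relative of PSD-95 that anchors glutamate receptors, and spans chr7:90476672-92449247 on the plus strand. Of its 81 peaks, 17 were at or above the median level, none held the core motif, and 5 lay within 1 kb of an annotated start. These start peaks were modest, between -1.25 and -0.22 in MommeD43-GFP and between -1.43 and 0.22 in the null, against -1.22 to 0.09 in control. The highest peak, at chr7:92093701-92094750 in intron 17, stood at 1.31 and 1.56 in the mutants, against 1.53 in control. The 1 peak at or above the median level that was past 2-fold, at chr7:92323651-92325000 in intron 19, stood at 0.15 in MommeD43-GFP and 0.77 in the null, against -0.33 in control, a difference of 0.48 and 1.11 (counting SE 0.18 each). A peak that is 88.7% repeat, at chr7:90480601-90481500, differed from control by -0.64 in MommeD43-GFP (counting SE 0.17), the lowest value of the gene at this level, and one that is 75.1% repeat, at chr7:90750751-90751500, by 0.77 (counting SE 0.21), the highest.

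Magi2 encodes a membrane-associated guanylate kinase that links receptors at synapses and in the kidney filter. It spans chr5:19227036-20704792 on the plus strand, with 88 peaks. Its longest stretch without a peak, 74.2 kb, was the shortest such stretch of the 8 genes. The last of 3 equal parts of the gene held 42 of the 88, and 19 of the 25 that reached the median level. Its highest peak, at chr5:20469901-20471250 in intron 10, was the only highest peak of a gene that was lower in the null than in control, with 1.89 in MommeD43-GFP and 1.32 in the null, against 1.63 in control. The peak at chr5:20701201-20702400, near an annotated inner start, was level across genotypes at 1.43, 1.42 and 1.43. Its neighbour at chr5:20702701-20703600, over the untranslated end of Magi2 and Gm29254, was not: it stood at 0.25 in MommeD43-GFP and 0.67 in the null, against -0.70 in control, differences of 0.95 and 1.37 (counting SE 0.20 each). A weak peak at an inner start, chr5:20534101-20534850, stood at -0.47 and -1.14 in the mutants, against -0.65 in control. The lowest difference of MommeD43-GFP in the gene at this level was -0.62 (counting SE 0.18), at chr5:20294851-20295900.

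Csmd1 encodes a large membrane protein with complement-control domains that limits complement activity at synapses. It spans chr8:15892537-17535586 on the minus strand and was the most densely covered of the 8 genes, with 139 peaks. Of these, 72 lay in the last of 3 equal parts and 24 touched a coding exon, more than in the other 7 genes together. The highest peak, at chr8:17421301-17422350 in intron 1, had the highest level per kb of all 691 members and stood at 2.09 in MommeD43-GFP and 2.49 in the null, against 1.52 in control. Its differences of 0.57 and 0.97 (counting SE 0.10 each) fell short of 2-fold. At the start of the gene, the peak at chr8:17535301-17536050 stood at -0.69 and -1.04 in the mutants, against -0.51 in control. An inner start at chr8:15985201-15985800 had -0.71 and -1.26, against -1.19.
Of its 29 peaks at or above the median level, 5 were at least 2-fold higher in the null, and 4 of these were also at least 2-fold higher in MommeD43-GFP. The peak of highest level among them, at chr8:16893751-16895550 in intron 3, stood at 1.54 in MommeD43-GFP and 2.14 in the null, against 0.88 in control, differences of 0.66 and 1.26 (counting SE 0.12 each). The motif peak at chr8:16834651-16836000, also in intron 3, holds the seventh sequence and stood at 0.83 in both mutants, against -0.20 in control. The other 3 lay at chr8:16704901-16705800, chr8:16775851-16776750 and chr8:17283601-17284500. They stood between 0.06 and 0.39 in MommeD43-GFP and between 0.12 and 0.63 in the null, against -0.95 to -0.62 in control. Of these 5 peaks, 4 lay between 641 and 830 kb from the gene start. Among weaker Csmd1 peaks, the one at chr8:17167201-17167950, named after its values were seen, held 22.1 reads per library in MommeD43-GFP and 47.4 in the null, against 3.42 in control, differences of 2.45 (counting SE 0.48) and 3.53 (counting SE 0.47).

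Macrod2 encodes an enzyme that removes ADP-ribose from proteins, and its locus is a known site of frequent deletion in tumours. It spans chr2:140395309-142392966 on the plus strand, with 74 peaks. The highest, at chr2:142253551-142255650 in intron 10, holds the gene's only core motif (the last sequence) and stood at 1.90 in MommeD43-GFP and 2.10 in the null, against 1.72 in control. The peak at the gene start, chr2:140395801-140396550, was below the median level, with -0.49 and -0.44 in the mutants, against -0.80 in control. A single peak at or above that level was past 2-fold. It lay at chr2:140926801-140927550 in intron 4 and stood at 0.71 in MommeD43-GFP and 0.87 in the null, against -0.19 in control, differences of 0.90 and 1.06 (counting SE 0.17 each). The lowest difference of MommeD43-GFP in the gene at this level was -0.59 (counting SE 0.22), at chr2:141065701-141066450, a peak that is 83.7% repeat.

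Smchd1 del/del and control were first compared over all 691 peaks. The null was at least 2-fold higher in 59 members (8.54%), against 3.31% of all peaks, and at least 2-fold lower in 24 (3.47%), against 1.85% of all peaks. The peak list merges peaks called in each genotype, 2 of the 3 being mutants, so a region can be listed through a mutant alone. For either mutant, more peaks above control than below it can therefore come in part from how the list was made. The higher peaks were 14 of 76 in Lsamp, 14 of 139 in Csmd1, 11 of 93 in Nrxn3 and 7 of 81 in Dlg2. They were 4 of 70 in Cntnap2 and in Ptprd, 3 of 74 in Macrod2 and 2 of 88 in Magi2. By the mean of the 3 columns the 59 had a median of -0.94, against -0.53 over all peaks, and 17 of them reached the median level. They had a median of 11.9 reads per library in control, and the 24 lower members 23.4. Low control values raise this difference, so the control reads are not a separate measure of how weak these peaks were. At or above the median level, 17 of 161 members (10.6%) were at least 2-fold higher in the null, against 1.54% of all such peaks, and 0 were 2-fold lower, against 0.34%. Of the 17, 5 lay in Lsamp, 5 in Csmd1, 3 in Nrxn3, 1 each in Ptprd, Dlg2, Magi2 and Macrod2, and 0 in Cntnap2. They were thus not spread evenly over the 8 genes. These 161 were weaker and shorter than all such peaks, with a median control value of -0.11 against 0.38 log2 RPM and 900 against 1200 bp. Neither mutant's shares at this level were matched for level or length, and the part of these in the excess was not tested. Since 2 of the 3 columns that set this level are mutants, a peak can pass through the mutants alone, and in 7 of the 17 the control value lay below the median of its own column. With the level taken from the control column alone, a choice made after the data were seen, 10 of 156 members (6.41%) were at least 2-fold higher in the null, against 0.871% of all peaks so chosen, and 4 (2.56%) at least 2-fold lower, against 1.11%. The median difference over all members was 0.03, against -0.04 over all peaks. It was highest in Lsamp (0.19), Nrxn3 (0.13) and Ptprd (0.09), and lowest in Csmd1 and Magi2 (-0.05 each), which turned positive (0.01 each) when each column was centred on its median. At or above the median level it was 0.13, against -0.04 over all such peaks, and turned to -0.06, against -0.10 over all, when the control column set the level. The members differed from the rest of the peaks in the width of their spread more than in their centre, since the SD of the differences was 0.68 over members and 0.51 over all peaks, and the median counting SE was 0.28 and 0.23.

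MommeD43-GFP was less often 2-fold apart from control than the null was, though its median difference was not smaller (0.06 against 0.03 over members). The MommeD43-GFP column averages 3 libraries and the null column 2. The median counting SE of their differences from control was 0.25 and 0.28 over members. At least 2-fold higher were 29 members (4.20%), against 2.08% of all peaks, and at least 2-fold lower 8 (1.16%), against 0.718%. At or above the median level, 6 of 161 (3.73%) were higher, against 0.41% of all such peaks, and 0 were lower, against 0.0585%. With a pseudocount of 0.1 RPM, 1 of the 161 (0.621%) was higher, against 0.248%, while in the null 13 (8.07%) were, against 1.21%. The 6 lay in Csmd1 (4), Lsamp (1) and Ptprd (1). With the level taken from the control column alone 1 of 156 members (0.641%) was at least 2-fold higher, against 0.0921% of all peaks so chosen, and 2 (1.28%) lower, against 0.262%. In 5 of the 6 higher peaks the control value lay below the median of its own column. The median difference was 0.06 over members, against 0.01 over all peaks, and lay between -0.06 in Cntnap2 and 0.17 in Csmd1. At or above the median level it was 0.14, against 0.00 over all such peaks, and turned to -0.04, against -0.05 over all, with the level set by the control column.

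**Figure D3:**
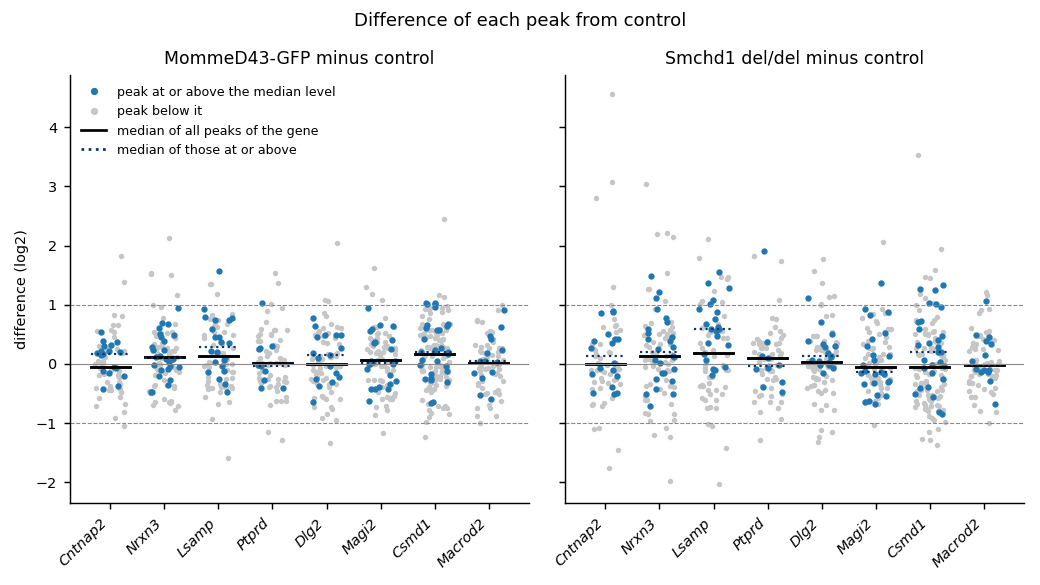
Difference of each peak from Smchd1 GFP/GFP in log2 (vertical axis), by gene, for MommeD43-GFP (left) and Smchd1 del/del (right). Blue points are peaks at or above the median level of all peaks and grey points those below it, solid bars are medians over all peaks of a gene and dotted bars medians of the blue points, of which the highest is 0.59, for Lsamp in the null, and dashed lines mark 2-fold.

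Of the 17 peaks that reached the median level and were at least 2-fold higher in the null, all 17 were also above control in MommeD43-GFP, by 0.48 to 1.57. Of the 1741 peaks of the series past the same line, 98.3% were too. As both differences are taken from the same control values, this is a description of these peaks and not a separate sign of either mutant's effect. Over all levels, 23 members (3.33%) were at least 2-fold above control in both mutants, against 1.13% of all peaks, 1 (0.145%) was at least 2-fold below in both, against 0.148%, and 0 were above in one and below in the other.

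**Figure D4:**
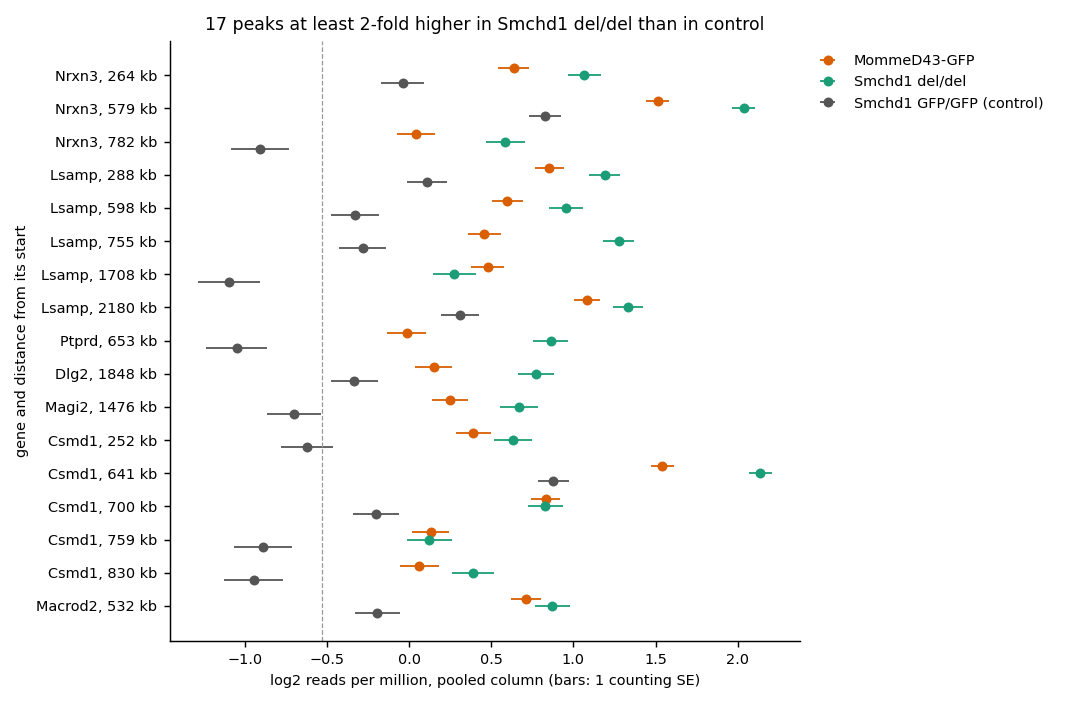
The 17 peaks that reached the median level and in which Smchd1 del/del was at least 2-fold higher than control, each on a line labelled with its gene and its distance from the gene start. Points are the pooled columns in log2 RPM with 1 counting SE, orange for MommeD43-GFP, green for Smchd1 del/del and grey for Smchd1 GFP/GFP, and the dashed line is the median level of all peaks. Control is lowest on every line, and 7 control points lie below their column's median.

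The mutants were then set against each other. MommeD43-GFP was at least 2-fold above Smchd1 del/del in 18 members (2.60%), against 1.26% of all peaks, and at least 2-fold below it in 12 (1.74%), against 1.08%. None of the 161 members at or above the median level was 2-fold apart in either direction, where 0.114% and 0.23% of all such peaks were. The median difference was -0.01 over members and 0.03 over all peaks. Csmd1 was the gene furthest towards MommeD43-GFP (median 0.17, above the null in 89 of 139 peaks), and Lsamp the one furthest towards the null (median -0.10, above it in 31 of 76). These are 64.0% and 40.8% of the peaks, against 53.9% of all peaks in which MommeD43-GFP was above the null. The place of Lsamp depended on the processing. After quantile normalization Macrod2 (-0.137) and Nrxn3 (-0.132) lay beyond Lsamp (-0.126), and these genes did so too with a loess trend on level removed.

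Summed over the peaks of a gene on the linear scale, where strong peaks count most, the null exceeded control in all 8 genes. Lsamp came to 65.2 RPM in MommeD43-GFP and 72.8 in the null, against 57.8 in control, log2 ratios of 0.17 and 0.34. Cntnap2 came to 54.7 and 62.6, against 52.8 in control. Csmd1 was the gene in which the point mutant exceeded the null by most, with 90.7 and 88.1, against 79.8 in control. Over the 8 genes the sums were 469.9 and 495 RPM, against 439.7 in control, log2 ratios of 0.10 and 0.17, while over all peaks the ratios were 0.00 and 0.01. In the other 46 long genes they were -0.01 and 0.00. In 19 other long neural genes, described below, they were 0.04 and 0.09, the same direction as in the 8 genes. In 20 relatives of the 8 genes by family, also described below, they were 0.003 and 0.001.

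The 17 peaks higher in the null at or above the median level were then described by features that the gene rule did not use. In introns lay 16 of the 17, near the share of the other 144 members at this level (86.1%), and the other lay in the untranslated end of Magi2. Their median GC content was 39.9% (range 31.5 to 44.1%), against 46.3% in those 144 members and 48.2% in all peaks at it. The 1741 peaks of the whole series that passed the same line had a median GC content of 41.9%, so low GC went with this call outside the 8 genes too. After differences were centred within 20 bins of GC content, 8 of the 161 members (4.97%) were at least 2-fold higher in the null, against 1.02% of all peaks at this level, and 1 in MommeD43-GFP, against 0.218%. The part of base composition in these differences was not tested further. The core motif was present in 4 of the 17 (23.5%), against 9 of the other 144 members (6.25%). The relaxed consensus allows any base at the variable positions near the 5′ end of the core and at the fixed A just before them. It was present in 9 of the 17 (52.9%), against 29 of those 144 (20.1%). Over the series, 7.28% of peaks at this level held the core and 30.3% the relaxed consensus, and of the 1741 that passed the same line 19.0% and 46.4% did, so the motifs too went with this call outside the 8 genes.
Motif peaks among the members stood high. Of the 16, 13 were at or above the median level, and their median level was 0.80 in MommeD43-GFP and 1.18 in the null, against 0.34 in control. Without a motif, the medians were -1.03, -0.98 and -1.03. In 14 of the 16 motif peaks the null was above control (median difference 0.47), and in 13 MommeD43-GFP was (0.28). Most motif peaks of the series did so too: of 8560, the null was above control in 5762 (median 0.13) and MommeD43-GFP in 5156 (0.05).

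Among relatives of the 8 genes, listed by family, 20 of 22 had a peak in the table. The list takes in other Cntnap, neurexin, Csmd, IgLON, Dlg and Magi genes, the receptor phosphatases Ptprf and Ptprs, and Macrod1. Their 754 peaks had a density of 76.5 per Mb, with the length of the relatives without a peak left out, which raises it. MommeD43-GFP was at least 2-fold above control in 31 (4.11%) and the null in 32 (4.24%). Of the 288 that reached the median level, MommeD43-GFP was at least 2-fold higher in 2 (0.694%) and the null in 3 (1.04%). In 19 other long neural genes, among them Rbfox1 and Lrp1b, MommeD43-GFP was at least 2-fold higher in 4 of 504 peaks at this level (0.794%) and the null in 14 (2.78%). In the 46 other genes of 1 Mb or more, MommeD43-GFP was higher in 13 of 1867 (0.696%) and the null in 36 (1.93%). These groups overlap each other in part, and the differences between them and the 8 genes were not tested, since each genotype is 1 pooled column.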

How the data were processed

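ChIP-seq for CTCF was done on 8 libraries, 75 bp reads, of 3 genotypes of female mouse NSCs. The authors trimmed reads with Trim Galore 0.4.4, aligned them to GRCm38 with Bowtie2 2.3.4.1, called peaks in SeqMonk for each genotype over its libraries and merged them. The table they deposited holds log2 reads per M mapped reads in each merged peak, not divided by peak length, as 1 pooled column per genotype, the authors' mean over its libraries; 0 columns of single samples were used. The lowest log2 value of each column was read as a peak without reads, entered as 0.9 reads, and the depth and the counting SE were computed from that (40 of the 40 lowest steps of each column were whole reads within 0.01). Differences between columns are log2, and with 1 pooled column per genotype no test or p-value could be given, so a peak past 2-fold is a description. Members were peaks that overlap a gene record of GENCODE M21. Motifs, GC content and repeat masking were read from the RefSeq GRCm38.p6 genome. Of the long genes, 1 had no row in the table and was not analysed here.

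The peaks named in each gene are those within 1 kb of an annotated start, the highest by the mean of the 3 columns, the motif peaks among the 3 highest, and, at or above the median level, those at least 2-fold apart, or the ones with the highest and lowest difference where none is; others are said to be chosen after their values were seen. The genes, lists and rules were chosen with earlier results of these data known. Alternatives were centring, quantile normalization, loess on level, 20 bins of GC content, pseudocounts, level filters and other fold thresholds. Python 3.11.15, numpy 2.4.6, pandas 2.3.3 and scipy 1.17.1 were used, and the scripts were tested on simulated data.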

Additional observations from a re-analysis of the deposited data

How the results depend on the processing

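Each genotype is 1 pooled column, so the alternatives change values and none is a test. No paired analysis was possible because the deposited columns pool the replicates, and for the same reason no library could be left out. Values below are median differences over the member peaks in log2, then counts of members past 2-fold. Centring each column on its median gave 0.089 for Smchd1 del/del against control (0.03 as deposited) and -0.048 for MommeD43-GFP against the null (-0.01 as deposited). Quantile normalization gave -0.048 for the mutants' difference, with 18 members lower in MommeD43-GFP than in control (8 as deposited), against 1.23% of all peaks, and 20 lower than in the null (12), against 1.74%. Removing a loess trend on level gave medians of 0.032 for MommeD43-GFP and 0.060 for the null against control and -0.068 between the mutants. It gave 17 members lower in MommeD43-GFP than in control, against 1.34% of all peaks, and 4 higher and 19 lower in it than in the null, against 0.633% and 1.61%. Bins of GC content gave -0.041 between the mutants. A pseudocount of 0.1 RPM left 15 members higher and 3 lower in MommeD43-GFP than in control, 6 lower in the null than in control, and 2 higher and 6 lower in MommeD43-GFP than in the null. A pseudocount of 1 RPM gave a median of 0.021 for MommeD43-GFP against control and left 1 member past 2-fold, higher in the null, and 0 in every other direction. Shares of all peaks are not given for these pseudocount counts over all levels, so they do not show how the members compare with other peaks.

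At or above the median level, medians were 0.14 for MommeD43-GFP and 0.13 for the null against control and -0.10 between the mutants, with 6 members higher in MommeD43-GFP, 17 higher in the null and 0 in every other direction. With the level set by the control column, which was chosen after seeing the data, both medians against control turned negative, at -0.040 for MommeD43-GFP and -0.064 for the null, and that between the mutants was -0.040. Members past 2-fold were then 1 higher and 2 lower in MommeD43-GFP than in control, and 10 higher and 4 lower in the null than in control. Between the mutants, 2 (1.28%) were higher and 0 lower in MommeD43-GFP than in the null, against 0.235% and 0.19% of all peaks so chosen. At 1.5-fold, the counts were 105 higher and 66 lower in MommeD43-GFP than in control, 119 and 84 in the null against control, and 76 and 67 in MommeD43-GFP against the null. At 4-fold they were 3 and 0, 10 and 1, and 0 and 1 in the same order. Shares of all peaks past 1.5-fold and 4-fold are not given, so these counts do not show how the members compare with other peaks. The density of peaks was 44.8 per Mb over all levels and 10.4 for peaks that reached the median level. The median level in control was -1.02 as deposited and -0.013 per kb of peak, and the share of members with a motif was 2.32% for the core and 7.53% for the relaxed consensus. Of the members that reached the median level, a pseudocount of 0.1 RPM left 1 higher in MommeD43-GFP than in control (6 as deposited) and 13 higher in the null (17). The cause of these shifts was not tested, except that a higher pseudocount shrinks the differences of weak peaks by construction. Depth limits the weak peaks most. The 59 members higher in the null had a median of 11.9 reads per library in control, a value that is low in part because the call favours low control values.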
